A study of Rattus norvegicus with 15 samples.

Results

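The potassium channel genes of rat multifidus, a paraspinal muscle, were taken as the protein-coding genes of the count table whose symbol starts with Kcn and whose mean read count over the 15 libraries was at least 10. This rule used the overall level only and no comparison between groups. It kept 46 of the 94 Kcn genes in the table, which lists 37991 genes. Of the other 48, 12 had 0 counts in every library and 36 were counted below the limit. Just outside the limit were Kcnmb2 with a mean count of 9.87, Kcnh1 with 8.73 and Kcng4 with 8.60. Just inside it were Kcnk1 with 16.7, Kcnk3 with 17.0 and Kcnd3 with 19.2. All 46 passed the filter on low counts and were tested among 17201 genes.

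RNA came from the multifidus of wild type male Sprague Dawley rats aged 12 weeks. Control rats (n = 2 libraries) had no surgery. In the other 4 groups, part of the lamina was removed and the spinal nerve at L5 on the left was tied off. The surgery group (n = 2) was given nothing afterwards, so no group received the injection buffer alone. The pMT group (n = 4) received human plasma-derived mitochondria (pMT) into the muscle on day 14, at 25 μg per site and 50 μg per rat. The VitD group (n = 3) received cholecalciferol at 150 μg per site and 300 μg per rat, and the pMT/VitD group (n = 4) received both agents at these doses. Tissue was taken on day 28 in the surgery and pMT groups, and the days of the groups with VitD are not stated in the sources used here. The labels number the libraries without naming the rats, so p-values measure the spread between these libraries.

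Potassium channels let potassium leave or enter the cell along its gradient and so set the resting membrane potential and end the action potential. Inward rectifiers stabilise the resting potential, voltage-gated channels open on depolarisation, calcium-activated channels open when calcium rises, and two-pore domain channels carry leak currents. Auxiliary subunits form no pore and change the trafficking or gating of the pore subunits. In skeletal muscle, ATP-sensitive inward rectifiers couple excitability to the energy state of the fibre, and loss of the nerve is known to change the ion channels of the fibre membrane.

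Total counts ranged from 52342134 to 73557878 per library (median 64352162). Muscle fibre markers (8 genes such as Acta1, Ckm and Myh4) summed to between 85977 and 154032 CPM (read counts scaled to the normalised library size) in every library, whereas the neuronal markers Snap25, Rbfox3 and Syt1 together did not exceed 0.195 CPM. Schwann cell and nerve markers summed to 66.8 to 82.7 CPM over all groups. A pair of libraries stood apart from their labels. Replicate 4 of pMT was closer to pMT/VitD replicates 1 to 3 than to its own group (SD of log2 ratios over 7134 genes 0.183 to 0.315 against 0.344 to 0.532), and replicate 4 of pMT/VitD was closer to pMT replicates 1 to 3 than to its own (0.210 to 0.273 against 0.377 to 0.470). Results on these groups are therefore given with and without both libraries. The choice of these libraries rests on the same counts, so leaving them out favours a separation of the pMT and pMT/VitD groups. VitD replicate 1 was extreme within its group, with a summed level of 10 denervation genes of 1234 CPM against 503 and 240 CPM in the other 2. The gene Myh3 led this sum, with up to 993 CPM in the VitD group.

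Levels of the 46 genes were compared with each other as TPM, the deposited transcript abundances, which are scaled by transcript length. Inward rectifiers made up 49.4% of the summed mean TPM and voltage-gated pore subunits 38.4%. The 11 auxiliary subunits made up 6.16%, the 7 calcium- or sodium-activated subunits 4.11%, the 6 two-pore domain subunits 1.45% and the 2 silent voltage-gated subunits 0.409%. The mean level of Kcnj11, which encodes the Kir6.2 pore of the ATP-sensitive channel, was 72.6 TPM. Kcnc4 (Kv3.4, a fast inactivating voltage-gated channel) followed at 45.9 TPM, Kcna7 (Kv1.7) at 18.9 TPM and Kcnj12 (Kir2.2) at 15.8 TPM. These 4 genes held 74.4% of the summed level, another 16 lay between 1 and 10 TPM, and 26 were below 1 TPM. The leading member of each remaining class was Kcnab1 at 5.68 TPM, Kcnn3 at 4.14 TPM, Kcnk6 at 1.47 TPM and Kcns3 at 0.681 TPM.

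**Figure D1:**
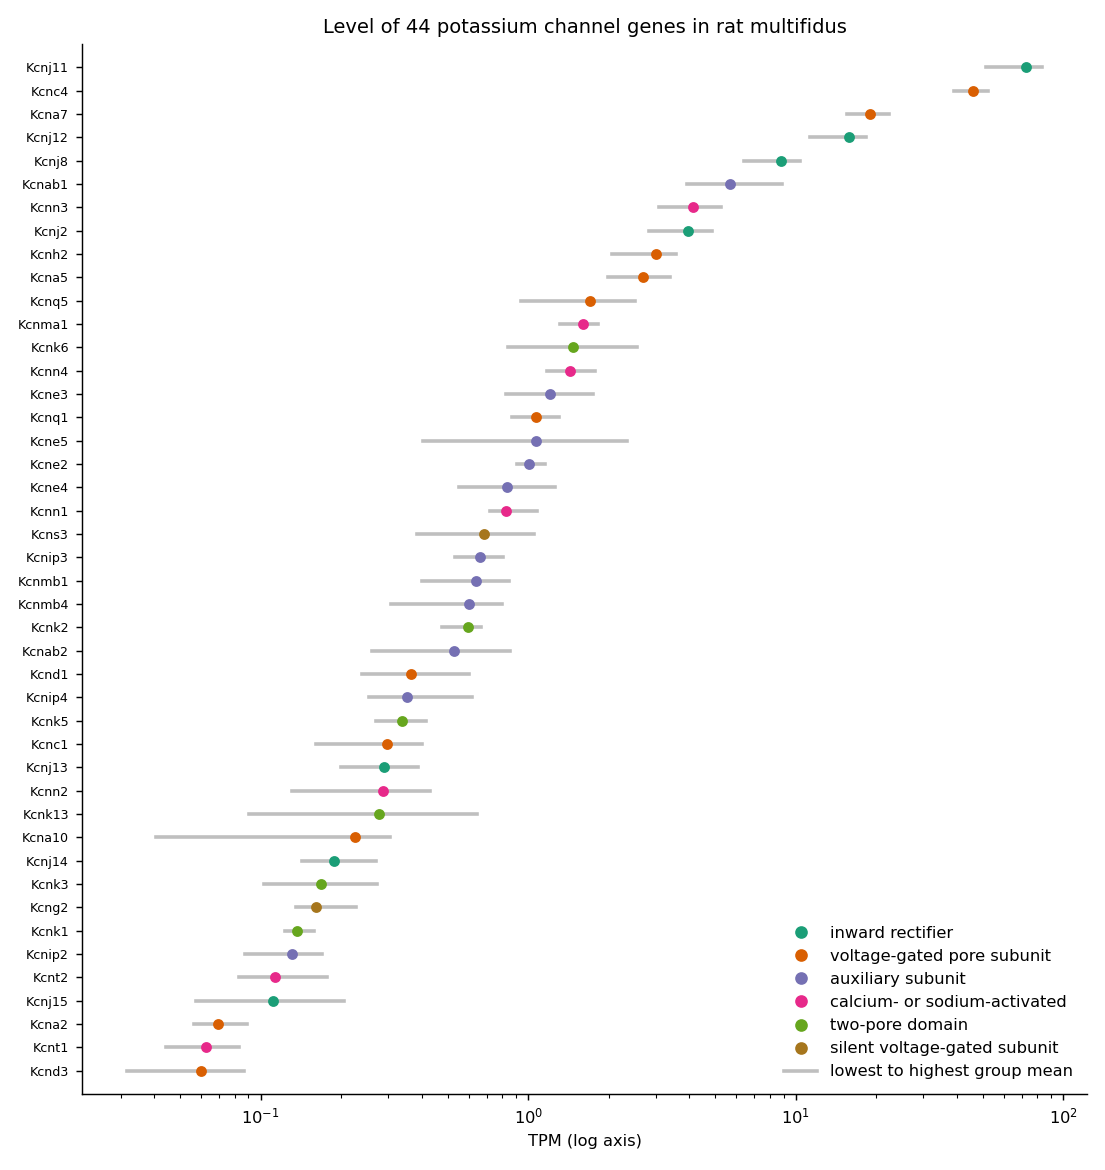
Mean level in TPM (log axis) of 44 of the 46 potassium channel genes over 15 libraries, coloured by class, with a grey bar from the lowest to the highest of the 5 group means. Kcnj11 at 72.6 TPM and Kcnc4 at 45.9 TPM lead, and the levels span from these to under 1 TPM.

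Promoter sequences (RefSeq, build GRCr8, 250 bases before to 50 bases after the transcription start) were found for 31 of the 46 genes. Those of the 4 genes that differed between groups and had an entry are printed, since they show the start regions of genes with opposite orders across the groups. Capitals mark the E-box CANNTG, the core bound by myogenic basic helix-loop-helix factors. The pattern reads the same on both strands. Kcnc1 (chr1:106038997-106039296, plus strand) had lower values in every surgery and VitD library than in the rest, while Kcnab2 (chr5:168270711-168271010, minus strand), Kcnk13 (chr6:124971559-124971858, plus strand) and Kcne5 (chrX:110727800-110728099, minus strand) had higher group means there, without overlap between libraries for Kcne5 and with overlap for Kcnab2 and Kcnk13.
Kcnc1: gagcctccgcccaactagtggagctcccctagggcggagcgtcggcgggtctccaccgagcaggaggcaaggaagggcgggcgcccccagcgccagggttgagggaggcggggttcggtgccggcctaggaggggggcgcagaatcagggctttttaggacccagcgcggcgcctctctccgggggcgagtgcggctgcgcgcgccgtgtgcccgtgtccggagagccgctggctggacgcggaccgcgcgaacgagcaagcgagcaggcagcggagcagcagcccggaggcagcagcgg
Kcnab2: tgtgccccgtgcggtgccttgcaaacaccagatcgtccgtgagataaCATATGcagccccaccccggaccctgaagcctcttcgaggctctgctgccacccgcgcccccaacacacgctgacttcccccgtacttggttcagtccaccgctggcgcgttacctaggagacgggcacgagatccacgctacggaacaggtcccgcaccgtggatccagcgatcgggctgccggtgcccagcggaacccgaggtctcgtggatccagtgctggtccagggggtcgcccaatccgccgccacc
Kcnk13: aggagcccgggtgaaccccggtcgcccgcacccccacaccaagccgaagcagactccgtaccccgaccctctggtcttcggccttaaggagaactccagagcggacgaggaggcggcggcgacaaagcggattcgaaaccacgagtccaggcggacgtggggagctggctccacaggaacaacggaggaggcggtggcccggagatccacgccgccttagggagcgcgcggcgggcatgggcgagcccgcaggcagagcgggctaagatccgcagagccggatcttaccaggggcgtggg
Kcne5: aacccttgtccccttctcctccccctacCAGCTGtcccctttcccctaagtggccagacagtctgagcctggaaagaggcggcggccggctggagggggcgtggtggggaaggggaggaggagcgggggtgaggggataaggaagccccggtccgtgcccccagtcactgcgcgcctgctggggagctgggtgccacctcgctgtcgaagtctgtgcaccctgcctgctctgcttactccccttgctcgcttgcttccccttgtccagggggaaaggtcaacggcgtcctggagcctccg

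The Kcnab2 and Kcne5 windows held 1 CANNTG each, that of Kcne5 being CAGCTG, and those of Kcnc1 and Kcnk13 held 0. CANNTG occurred in 20 of the 31 potassium channel promoters (64.5%) and in 71.6% of 27457 promoters of the same length. Its special case CAGCTG, which overlaps it by definition, occurred in 11 of 31 (35.5%) and in 15.1% of all. The MEF2 consensus was found in 0 of 31 and in 3.4% of all. These matches describe the letters of the windows only.

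Among the 46 genes, 10 (21.7%) differed among the 5 groups (edgeR quasi-likelihood F-test, Benjamini-Hochberg adjusted p under 0.05 over all genes), where 11.8% of all genes tested did. They were 4 voltage-gated pore subunits (Kcna7, Kcnc1, Kcnh2 and Kcnq1), 2 inward rectifiers (Kcnj11 and Kcnj12), 2 two-pore domain subunits (Kcnk6 and Kcnk13) and 2 auxiliary subunits (Kcnab2 and Kcne5). No calcium- or sodium-activated and no silent subunit was among them in this test. For all 10 the control, pMT and pMT/VitD means lay on one side of the surgery and VitD means. How many of the 2035 genes called in all by this test showed that split was not counted, so it is not a trait of these members. Without pMT replicate 4 and pMT/VitD replicate 4, 14 of 46 members were called, and all 10 were among them. In that fit 5125 of all 17182 genes tested were called, a share close to that of the members. Scaling by library size alone also gave 10 of 46, of which 6 were shared, and Kcna7, Kcnj11, Kcnj12 and Kcnq1 were not among them. It called 3579 genes in all, against 2035 in the main fit, again a share close to that of the members. In whole muscle, fewer cells of a type and less RNA per cell cannot be told apart.

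**Figure D2:**
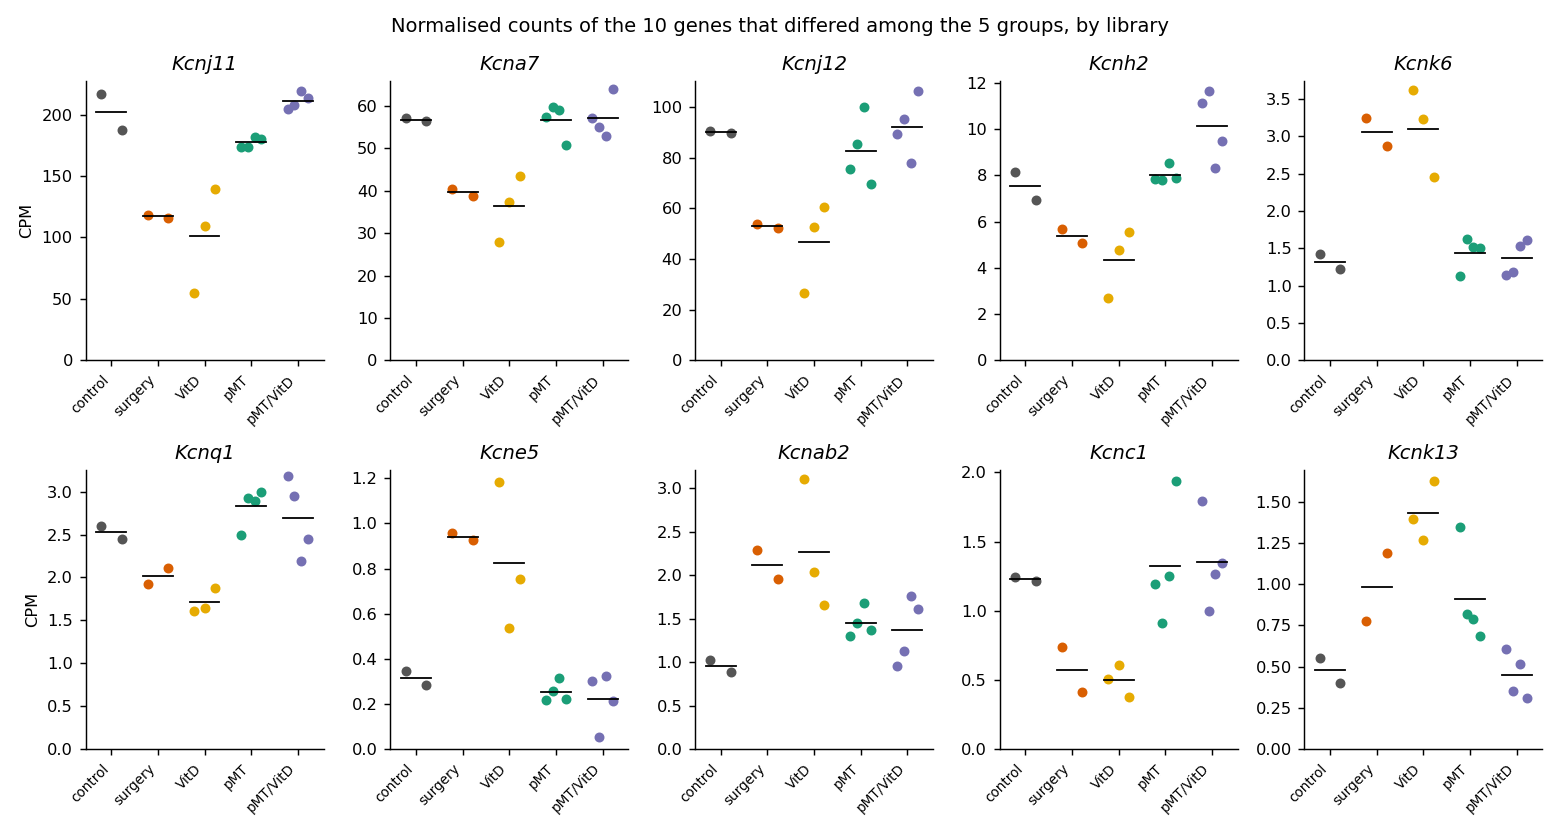
CPM of the 10 genes that differed among the 5 groups, 1 point per library and a line at the group mean, each panel with its own axis from 0. Kcnj11 lies at 116 and 118 CPM after surgery alone and at 174 CPM or above in control, pMT and pMT/VitD libraries, while Kcnk6 and Kcne5 show the opposite order.

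The inward rectifiers that lead in this muscle, Kcnj11 and Kcnj12, were low in surgery and VitD libraries, whereas Kcnj8 and Kcnj2 were above control in both surgery libraries. Kcnj11 measured 217 and 187 CPM in control and 118 and 116 CPM in surgery libraries. It was 54.7, 109 and 140 CPM with VitD, 174, 174, 182 and 180 CPM with pMT, and 205, 208, 219 and 213 CPM with pMT/VitD. No surgery or VitD library reached the lowest control, pMT or pMT/VitD library. It differed among the 5 groups (adjusted p = 0.0188) and fell in VitD against control (log2 fold change -1.0 ± 0.25 SE, adjusted p = 0.0266). Its log2 difference between surgery and control was -0.79 (95% interval -1.38 to -0.19, adjusted p = 0.161), that between pMT and surgery 0.60 (adjusted p = 0.268) and that between pMT/VitD and surgery 0.85 (adjusted p = 0.0518), none of which passed the test.

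Kcnj12, a strong inward rectifier that holds the fibre near its resting potential, measured 90.6 and 89.9 CPM in control, 53.7 and 52.2 CPM in surgery and 26.6, 52.8 and 60.6 CPM in VitD libraries. With pMT it was 75.6, 85.5, 99.8 and 69.6 CPM, and with pMT/VitD 89.4, 95.3, 77.9 and 106 CPM. As for Kcnj11, no surgery or VitD library overlapped the remaining groups. It differed among groups (adjusted p = 0.0260) and fell in VitD against control (log2 fold change -0.95 ± 0.25 SE, adjusted p = 0.0339).

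Kcnj2 (Kir2.1), the other main strong inward rectifier of muscle, was 20.8 and 23.3 CPM in control, 25.3 and 25.9 CPM in surgery, 17.7 to 29.1 CPM (median 25.7) in VitD, 19.7 to 28.2 CPM with pMT and 18.4 to 21.2 CPM with pMT/VitD. Its surgery against control log2 difference was 0.22 (95% interval -0.21 to 0.64), on the other side of 0 from Kcnj12. Kcnj8 (Kir6.1), an ATP-sensitive pore best known from vascular smooth muscle, was 7.97 and 8.33 CPM in control, 10.2 and 11.0 CPM in surgery, 10.1 to 10.8 CPM in VitD, 11.0 to 12.3 CPM in pMT and 7.40 to 11.1 CPM in pMT/VitD libraries. Its log2 difference was 0.38 for surgery against control (adjusted p = 0.222) and 0.49 for pMT against control (adjusted p = 1.0). Kcnj13, Kcnj14 and Kcnj15 had mean levels of 0.289, 0.188 and 0.111 TPM and none passed the test in any comparison.

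The sulfonylurea receptors that assemble with Kir6 pores did not pass the test in any of the 8 comparisons. Abcc9 was 90.9 and 94.9 CPM in control, 75.6 and 76.3 CPM in surgery, and spanned 54.3 to 119 CPM over the other 3 groups. Abcc8 was 11.3 and 14.8 CPM in control, 8.63 and 9.78 CPM in surgery, 3.29 to 10.5 CPM in VitD, 9.68 to 16.4 CPM in pMT and 11.0 to 18.7 CPM in pMT/VitD libraries.

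Of the 13 voltage-gated pore subunits, Kcna7, Kcnc1, Kcnh2 and Kcnq1 differed among groups, and all 4 had their low values in surgery and VitD libraries. Kcna7 measured 57.1 and 56.4 CPM in control, 40.4 and 38.9 CPM in surgery, 27.9, 37.4 and 43.6 CPM in VitD, 57.4, 59.8, 59.1 and 50.8 CPM in pMT and 57.2, 55.0, 52.9 and 64.1 CPM in pMT/VitD libraries. It fell in VitD against control (log2 fold change -0.64 ± 0.15 SE, adjusted p = 0.0203). It rose in pMT/VitD against surgery (0.53 ± 0.15 SE, adjusted p = 0.0441), a call kept in 10 of 24 alternative settings. Its pMT against surgery difference was nearly as large (0.52, adjusted p = 0.0977). It did not pass the main test on all libraries (edgeR quasi-likelihood), but did without both replicates 4. It was also called by DESeq2, with the gene length trend removed, with only the 2 groups in the fit, and without VitD replicate 1.

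Kcnh2, the erg channel that carries the rapid delayed rectifier of the heart, was 8.16 and 6.92 CPM in control and 5.66 and 5.09 CPM in surgery. It was 2.69, 4.79 and 5.53 CPM in VitD, 7.83, 7.81, 8.55 and 7.88 CPM in pMT and 11.1, 11.6, 8.32 and 9.50 CPM in pMT/VitD libraries. The pMT/VitD libraries were all above both control libraries. Kcnh2 fell in VitD against control (log2 fold change -0.80 ± 0.23 SE, adjusted p = 0.0437), a call kept in 11 of 24 alternative settings. It rose in pMT/VitD against surgery (0.92 ± 0.23 SE, adjusted p = 0.0267), while pMT/VitD against control did not pass the test (0.43, 95% interval -0.04 to 0.90).

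Kcnc1 (Kv3.1), a fast channel at a low level here, was 1.25 and 1.22 CPM in control, 0.737 and 0.409 CPM in surgery and 0.503, 0.611 and 0.377 CPM in VitD. It was 1.20, 0.908, 1.25 and 1.94 CPM in pMT and 1.79, 1.0, 1.27 and 1.34 CPM in pMT/VitD libraries, so the surgery and VitD libraries did not overlap the rest. It fell in VitD against control (log2 fold change -1.31 ± 0.35 SE, adjusted p = 0.0347). It rose in pMT/VitD against surgery (1.23 ± 0.35 SE, adjusted p = 0.0479), a call kept in 9 of 24 alternative settings. Kcnq1 (Kv7.1) was 2.60 and 2.45 CPM in control, 1.93 and 2.11 CPM in surgery, 1.61, 1.64 and 1.87 CPM in VitD, 2.49, 2.93, 2.89 and 3.0 CPM in pMT and 3.18, 2.95, 2.19 and 2.45 CPM in pMT/VitD libraries. It differed among the 5 groups (adjusted p = 0.0260) but passed no comparison of 2 groups by edgeR's quasi-likelihood test with all libraries. It was called lower in VitD against control by DESeq2, with the gene length trend removed, and without pMT/VitD replicate 3.

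Kcnc4, the most abundant voltage-gated gene, was not called in any comparison (edgeR and DESeq2). It was 121 and 96.8 CPM in control, 93.6 and 86.5 CPM in surgery, 61.3, 83.6 and 94.7 CPM in VitD, 103, 116, 125 and 67.5 CPM in pMT and 74.1, 76.4, 101 and 124 CPM in pMT/VitD libraries. Both replicates 4 were at the far end of their group. Kcnq5 (Kv7.5) was 3.74 and 4.48 CPM in control, 6.45 and 5.89 CPM in surgery, 5.47 to 6.76 CPM in VitD, 2.90 to 5.50 CPM in pMT and 1.69 to 4.87 CPM in pMT/VitD, and its surgery against control log2 difference was 0.59 (adjusted p = 0.482).

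Of the 2 called two-pore domain genes, Kcnk6 had its high values in surgery and VitD libraries, while for Kcnk13 this held for the group means only. Kcnk6 (TWIK2) was 1.42 and 1.22 CPM in control, 3.24 and 2.86 CPM in surgery and 3.61, 3.23 and 2.46 CPM in VitD. It was 1.13, 1.63, 1.52 and 1.5 CPM in pMT and 1.15, 1.19, 1.53 and 1.62 CPM in pMT/VitD libraries. No library of control, pMT or pMT/VitD reached the lowest of the surgery and VitD libraries. Kcnk6 rose in surgery against control (log2 fold change 1.21 ± 0.25 SE, adjusted p = 0.0318) and in VitD against control (1.23 ± 0.23 SE, adjusted p = 0.00925). It fell in pMT against surgery (-1.08 ± 0.20 SE, adjusted p = 0.0174) and in pMT/VitD against surgery (-1.16 ± 0.21 SE, adjusted p = 0.00561). The interval of its log2 difference from control was -0.34 to 0.60 with pMT and -0.42 to 0.53 with pMT/VitD.

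Kcnk13 (THIK1), a leak channel known from microglia and macrophages, was 0.552 and 0.400 CPM in control, 0.775 and 1.19 CPM in surgery and 1.39, 1.27 and 1.63 CPM in VitD. It was 1.35, 0.819, 0.786 and 0.684 CPM in pMT and 0.605, 0.352, 0.516 and 0.311 CPM in pMT/VitD libraries. Unlike Kcnk6, its pMT libraries overlapped the surgery libraries, while all 4 pMT/VitD libraries lay below them. It rose in VitD against control (log2 fold change 1.58 ± 0.36 SE, adjusted p = 0.0195). It fell in pMT/VitD against surgery (-1.14 ± 0.33 SE, adjusted p = 0.0493), a call kept in 7 of 24 alternative settings. Kcnk5 (TASK2) ranged from 0.277 to 1.38 CPM over all libraries with overlapping groups, and Kcnk1, Kcnk2 and Kcnk3 passed no comparison.

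Auxiliary subunits summed to 9.37 ± 0.201 TPM in control (SD, n = 2), 17.9 ± 0.419 TPM in surgery (n = 2), 18.3 ± 3.46 TPM in VitD (n = 3), 11.2 ± 1.33 TPM in pMT (n = 4) and 9.0 ± 1.39 TPM in pMT/VitD libraries (n = 4). Kcnab2, a Kv beta subunit with an aldo-keto reductase fold, was 1.03 and 0.883 CPM in control, 2.29 and 1.95 CPM in surgery, 3.10, 2.04 and 1.65 CPM in VitD, 1.30, 1.45, 1.68 and 1.37 CPM in pMT and 0.951, 1.13, 1.76 and 1.62 CPM in pMT/VitD. It rose in VitD against control (log2 fold change 1.25 ± 0.30 SE, adjusted p = 0.0246). Its surgery against control difference was 1.15 (adjusted p = 0.0886).

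Kcne5, a single-span subunit that lowers currents of Kcnq1 channels, was 0.347 and 0.283 CPM in control, 0.956 and 0.927 CPM in surgery and 1.18, 0.538 and 0.755 CPM in VitD. It was 0.219, 0.256, 0.317 and 0.222 CPM in pMT and 0.303, 0.0556, 0.323 and 0.214 CPM in pMT/VitD libraries. These levels rest on 3 to 101 reads per library. Kcne5 fell in pMT against surgery (log2 fold change -1.88 ± 0.43 SE, adjusted p = 0.0408) and in pMT/VitD against surgery (-2.08 ± 0.45 SE, adjusted p = 0.0149). Without both replicates 4 the pMT against surgery value was -1.84 (adjusted p = 0.0527).

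Kcnab1, the most abundant auxiliary gene, was 13.5 and 14.6 CPM in control, 22.1 and 24.1 CPM in surgery and 22.7 to 24.5 CPM in VitD. It was 11.7 to 17.0 CPM in pMT and 10.4 to 25.0 CPM in pMT/VitD. In the main test on all libraries (edgeR quasi-likelihood) it passed no comparison (surgery against control 0.72, adjusted p = 0.264). With only the 2 groups in the fit it was called in surgery and in VitD, each against control. Library size alone called it in VitD against control and in pMT/VitD against surgery, and DESeq2 called it across the 5 groups. Kcne3, the partner of Kv3.4 in muscle, was 0.710 and 0.683 CPM in control, 1.14 and 1.15 CPM in surgery, 0.859 to 1.79 CPM in VitD, 0.565 to 1.11 CPM in pMT and 0.602 to 1.04 CPM in pMT/VitD. Kcnip2 spanned 0.238 to 0.538 CPM and passed no comparison.

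With all libraries none of the 7 calcium- or sodium-activated genes passed any comparison (edgeR quasi-likelihood test), and Kcnma1 passed that of pMT/VitD with pMT once both replicates 4 were left out. Kcnn3 (SK3), an apamin-sensitive channel known to appear in denervated muscle, was 11.7 and 11.1 CPM in control and 9.89 and 10.8 CPM in surgery. It was 11.0 to 12.3 CPM in VitD, 6.53 to 14.4 CPM in pMT and 6.36 to 13.4 CPM in pMT/VitD. The interval of its log2 difference between surgery and control was -0.88 to 0.59. Kcnma1 (BK) was 7.87 and 7.20 CPM in control, 5.72 and 6.34 CPM in surgery, 4.69 to 6.95 CPM in VitD, 3.64 to 10.3 CPM in pMT and 4.04 to 10.2 CPM in pMT/VitD. Kcnn2 (SK2) spanned 0.334 to 1.51 CPM over all libraries. Kcns3, a silent subunit that modifies other voltage-gated channels, was 0.742 and 0.700 CPM in control, 1.68 and 1.47 CPM in surgery, 0.911 to 1.87 CPM in VitD, 0.729 to 1.5 CPM in pMT and 0.559 to 1.13 CPM in pMT/VitD (surgery against control 1.13, adjusted p = 0.163).

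In the main test on all libraries (edgeR quasi-likelihood) a further 23 genes passed neither the test across the 5 groups nor any comparison. They included the pore subunits Kcna2, Kcna5, Kcna10, Kcnd1 and Kcnd3, the inward rectifiers Kcnj13, Kcnj14 and Kcnj15, the calcium- or sodium-activated Kcnn1, Kcnn4, Kcnt1 and Kcnt2, the two-pore Kcnk1, Kcnk2 and Kcnk3, the silent Kcng2, and the auxiliary Kcne2, Kcne4, Kcnip3, Kcnip4, Kcnmb1 and Kcnmb4. Of these, Kcnmb1, Kcna10 and Kcnd3 are described here by a choice made after their values were seen. Kcnmb1, the beta subunit of BK channels best known from smooth muscle, was 1.89 and 1.55 CPM in control, 2.97 and 3.06 CPM in surgery and 3.69, 2.77 and 2.46 CPM in VitD. It was 1.92 to 3.02 CPM in pMT and 1.73 to 2.45 CPM in pMT/VitD libraries (adjusted p across the 5 groups 0.114, edgeR's quasi-likelihood test). Both surgery libraries and all 3 VitD libraries lay above both control libraries, and neither difference passed the test (adjusted p 0.121 and 0.0524). Kcnmb1 was called in VitD against control with RLE factors and without both replicates 4, as was Kcnip4 in the latter case. The Kv1.8 gene Kcna10 and the Kv4.3 gene Kcnd3 each had 0 counts in 2 libraries and ranged up to 0.853 and 0.758 CPM.

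Counted by comparison, surgery against control called 1 of 46 genes, Kcnk6, which was higher. All genes tested gave 1.55% calls there, 1.25% higher and 0.296% lower. Members were split into 22 higher and 24 lower (median log2 fold change -0.05, against -0.01 over all genes). An unadjusted p under 0.05 was found for 16 of 46 members (10 higher and 6 lower) and for 2923 of all 17201 genes tested. Leaving out control replicate 1 or 2, surgery replicate 1 or 2, or VitD replicate 2 gave 0 calls in turn. Without VitD replicate 1 there were 5, namely Kcna7, Kcnj11 and Kcnj12 lower and Kcnab2 and Kcnk6 higher. In that fit 1022 genes in all were called, against 266 in the main fit.

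VitD against control called 8 of 46. Kcnk6, Kcnk13 and Kcnab2 were higher, and Kcna7, Kcnc1, Kcnh2, Kcnj11 and Kcnj12 were lower. Over all genes 8.67% were called, 5.48% higher and 3.2% lower. Scaling by library size alone, which put the median log2 fold change of all genes at 0.27 in this comparison, gave 8 higher and 2 lower. Over all genes this scaling called 2795, with 2660 of them higher. Under it Kcnj11 and Kcnc1 were lower, and Kcna7, Kcnh2 and Kcnj12 kept their direction without passing the test. Without either control library 0 were called. Without VitD replicate 1 there were 5 and without VitD replicate 2 there were 4, with Kcna7, Kcnk13 and Kcnk6 in both counts. Over all genes 612 and 774 were called in these fits, against 1492 in the main fit. VitD against surgery called 0 of 46 and 0% of all genes by edgeR's quasi-likelihood test, with 0 members and 139 of all genes at an unadjusted p under 0.05. DESeq2 called 0 members and 1 gene in all.

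Against surgery, pMT called 2 of 46, Kcnk6 and Kcne5, both lower. Over all genes 1.94% were called, 0.395% higher and 1.55% lower. Without both replicates 4, Kcnk6 (lower) and Kcna7 (higher) were called, and 541 genes in all. The combination pMT/VitD called 6 of 46 against surgery, with Kcnk6, Kcne5 and Kcnk13 lower and Kcnh2, Kcna7 and Kcnc1 higher. Over all genes 7.44% were called, 2.4% higher and 5.03% lower. Without both replicates 4 the count was 9 of 46, which added Kcnd1 and Kcnq5 (lower) and Kcnj11 (higher). In that fit 3462 of all 17182 genes tested were called, a share close to that of the members. Under library size alone, with a median of -0.32 over all genes, 11 were called lower and 0 higher. Over all genes this scaling called 3250, with 98 of them higher. Both comparisons share the surgery libraries, and leaving out either of these gave 0 calls in each. Without VitD replicate 1, which enters only through the common estimate of the spread, the counts were 6 and 9 (740 and 2020 over all genes). Leaving out control replicate 1 or 2 gave 1 and 3, and the other libraries that moved a count by over 1.5 times are listed in the closing section.

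No potassium channel gene passed the test between control and pMT or between control and pMT/VitD. edgeR's quasi-likelihood test called 0 of 46 and 0% of all genes in each, with 5 and 3 members (528 and 496 of all genes) at an unadjusted p under 0.05, and DESeq2 called 0 members in each. The test of whether the effect of pMT differed with and without VitD called 0 members and 0 genes in all, with 2 members (Kcnk13 and Kcnh2) and 888 genes at an unadjusted p under 0.05.

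**Figure D3:**
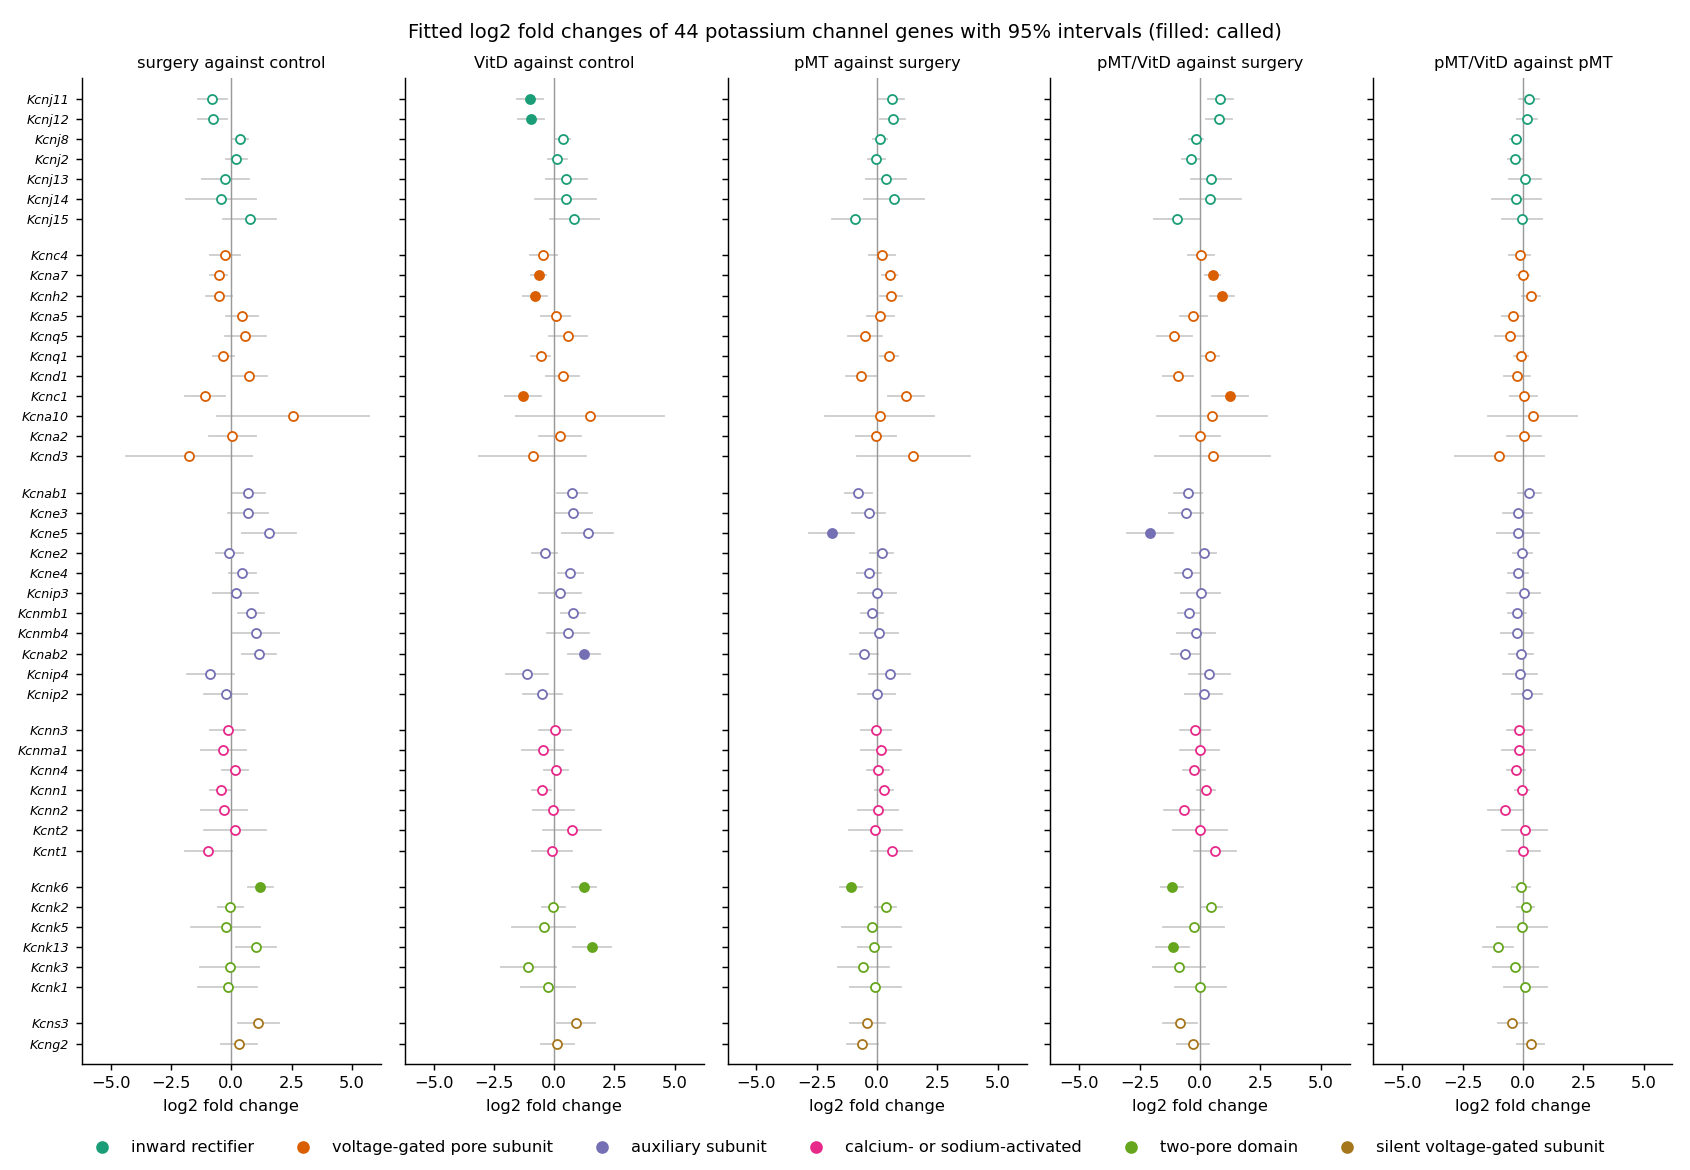
Fitted log2 fold changes (x axis) with 95% intervals of 44 of the 46 potassium channel genes, grouped by class and ordered by mean TPM, in 5 comparisons, with called genes filled. Kcnk6 is filled in the first 4 comparisons, and no gene is filled for pMT/VitD against pMT.

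The comparison of pMT/VitD with pMT turned on both replicates 4. With all libraries 0 of 46 members and 0% of all genes were called by edgeR's quasi-likelihood test (4 members and 1737 genes at an unadjusted p under 0.05, and 0 members and 93 genes by DESeq2). Without pMT replicate 4 and pMT/VitD replicate 4, 5 members were called, all lower in pMT/VitD, where 18.3% of all genes were called and 8.81% were called lower. Each of these 2 libraries was left out for lying closer to the other group, so more calls were likely in advance. These calls are therefore no independent evidence of a difference. Among them were Kcnq5 (log2 fold change -1.05 ± 0.23 SE, adjusted p = 0.00846), Kcnma1 (-0.77), Kcnj2 (-0.46) and Kcnk13 (-1.0).

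Kcnq5 was 4.35, 4.57 and 5.50 CPM in pMT replicates 1 to 3 and 1.82, 1.69 and 3.46 CPM in pMT/VitD replicates 1 to 3, while the replicates 4 were 2.90 and 4.87 CPM. Kcnma1 was 5.39, 7.58 and 10.3 CPM against 4.86, 4.69 and 4.04 CPM, with 3.64 and 10.2 CPM in the replicates 4. For both genes pMT/VitD replicate 4 lay within the range of pMT replicates 1 to 3, and pMT replicate 4 lay below pMT replicates 1 to 3. For Kcnk13 the order was another one, with both replicates 4 below all other libraries of their own group. The trend of counts with gene length also differed between libraries (Spearman correlation -0.39 to 0.45), along the same split. It was 0.018, 0.36 and 0.45 in pMT replicates 1 to 3 and -0.39, -0.39 and -0.17 in pMT/VitD replicates 1 to 3. Replicates 4 were at -0.32 (pMT) and 0.15 (pMT/VitD). Relative length (counts per TPM) had a median of 216 in genes called lower, 50.9 in genes called higher and 207 in the 5 members. Over all genes tested it was 118. With the length trend removed as well, 1 of the 5 was still called, Kcnq5, and 688 genes in all.

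**Figure D4:**
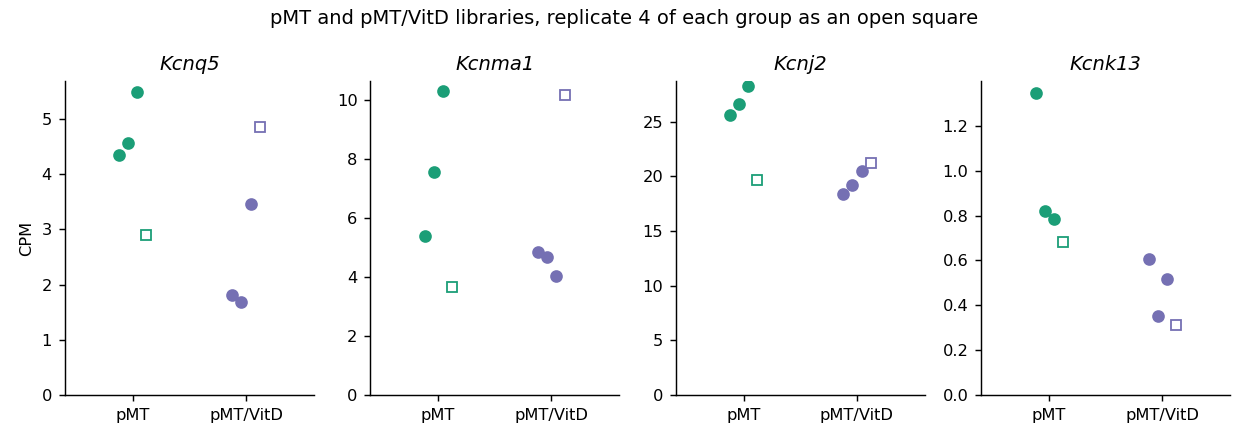
CPM of 4 of the 5 genes called between pMT/VitD and pMT without both replicates 4, with 1 point per library, replicates 1 to 3 filled and replicate 4 as an open square. For Kcnq5 and Kcnma1 the open squares lie on the side of the other group.

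Other genes of membrane excitability were described from a list of 24, of which 21 were tested. For surgery against control 0 of 21 were called (edgeR quasi-likelihood test), 18 had negative log2 values and the median was -0.42. For VitD against control 4 of 21 were called, 3 of them lower, where 8.67% of all genes were called and 3.2% were lower. The voltage sensor of excitation-contraction coupling, Cacna1s, fell by 1.05 on the log2 scale, the sodium pump subunit gene Atp1b2 fell by 1.16 and the pacemaker channel gene Hcn2 fell by 1.25. Hcn2 was 10.3 and 11.9 CPM in control and 5.04 and 5.33 CPM in surgery. It was 2.78 to 6.13 CPM in VitD, 8.95 to 11.2 CPM in pMT and 7.47 to 12.2 CPM in pMT/VitD, so that surgery and VitD libraries lay below the rest. For pMT/VitD against surgery 2 of 21 were called, 1 in each direction, where 7.44% of all genes were called, and Hcn2 rose by 0.90. For pMT against surgery 0 were called and 17 of 21 values were positive.

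Lists of other cell types and states moved with the same groups. The 10 denervation genes (such as Myh3, Chrng, Myog and Ncam1) summed to 82.4 to 94.9 CPM in control, 485 to 493 CPM in surgery and 240 to 1234 CPM in VitD. They summed to 85.2 to 131 CPM in pMT and 89.6 to 109 CPM in pMT/VitD libraries. Myh3 had the largest mean of the list in every group. It averaged 26.3 CPM in control and 330 CPM in surgery, and ranged from 113 to 993 CPM in VitD. Chrng, Myog and Ncam1 averaged 1.70, 47.6 and 26.3 CPM in surgery. All 10 had positive log2 values in surgery against control. In this list 4 of 10 rose in surgery against control and 9 rose in VitD against control, where 1.25% and 5.48% of all genes rose. In pMT against surgery 7 fell and in pMT/VitD against surgery 8 fell, where 1.55% and 5.03% of all genes fell. The 5 macrophage markers summed to 82.1 to 85.5 CPM in control, 137 to 138 CPM in surgery, 137 to 149 CPM in VitD, 53.5 to 99.4 CPM in pMT and 48.7 to 94.2 CPM in pMT/VitD. All 5 differed among the 5 groups, as did 11.8% of all genes. Between 2 groups, 1 rose in surgery and 1 in VitD, each against control, where 1.25% and 5.48% of all genes rose. Against surgery 1 fell with pMT and 5 fell with pMT/VitD, where 1.55% and 5.03% of all genes fell. The 4 fibroblast markers summed to 2367 to 2385 CPM in control, 4105 to 4125 CPM in surgery and 3451 to 6470 CPM in VitD. They summed to 2313 to 2756 CPM in pMT and 1740 to 2566 CPM in pMT/VitD. From control to surgery the mean went from 423 to 1059 CPM for Col1a1 and from 1191 to 2372 CPM for Col3a1. Pdgfra went from 37.1 to 43.3 CPM, and Dcn went the other way, from 725 to 642 CPM. Of these 4, 0 were called in surgery against control and 2 rose in VitD against control.

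The 8 fibre markers summed to 132593 to 146760 CPM in control, 114412 to 117635 CPM in surgery, 85977 to 122658 CPM in VitD, 116506 to 132973 CPM in pMT and 138751 to 154032 CPM in pMT/VitD, and none of them was called. The lowest sum was that of VitD replicate 1. From control to surgery 6 of the 8 had negative and 2 had positive log2 values. Myh4 averaged 21526 CPM in control, 13990 in surgery, 12002 in VitD, 23169 in pMT and 24694 in pMT/VitD. Myh2 went from 3094 CPM in control to 3546 CPM in surgery and Myh7 from 1736 to 2178 CPM. Across the 5 groups 1 of the 5 endothelial and 1 of the 6 smooth muscle and pericyte markers was called, and none of either list between 2 groups. None of the 4 adipocyte or 3 tested lymphocyte markers was called in any comparison. No listed macrophage, fibroblast or denervation marker was at 0 in any library. Within the VitD group the library with the highest denervation sum, replicate 1 at 1234 CPM, also had the lowest Kcnj11 (54.7 CPM), Kcnj12 (26.6 CPM), Kcna7 (27.9 CPM), Kcnh2 (2.69 CPM) and Kcnq1 (1.61 CPM) and the highest Kcnk6 (3.61 CPM), Kcnab2 (3.10 CPM) and Kcne5 (1.18 CPM). It did not have the highest Kcnk13 (1.39 CPM, against 1.63 CPM in replicate 3) or the lowest Kcnc1 (0.503 CPM, against 0.377 CPM in replicate 3). How many of all genes had their extreme value of the VitD group in this library was not counted. The part of these cell types and states in the potassium channel results was not tested.

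**Figure D5:**
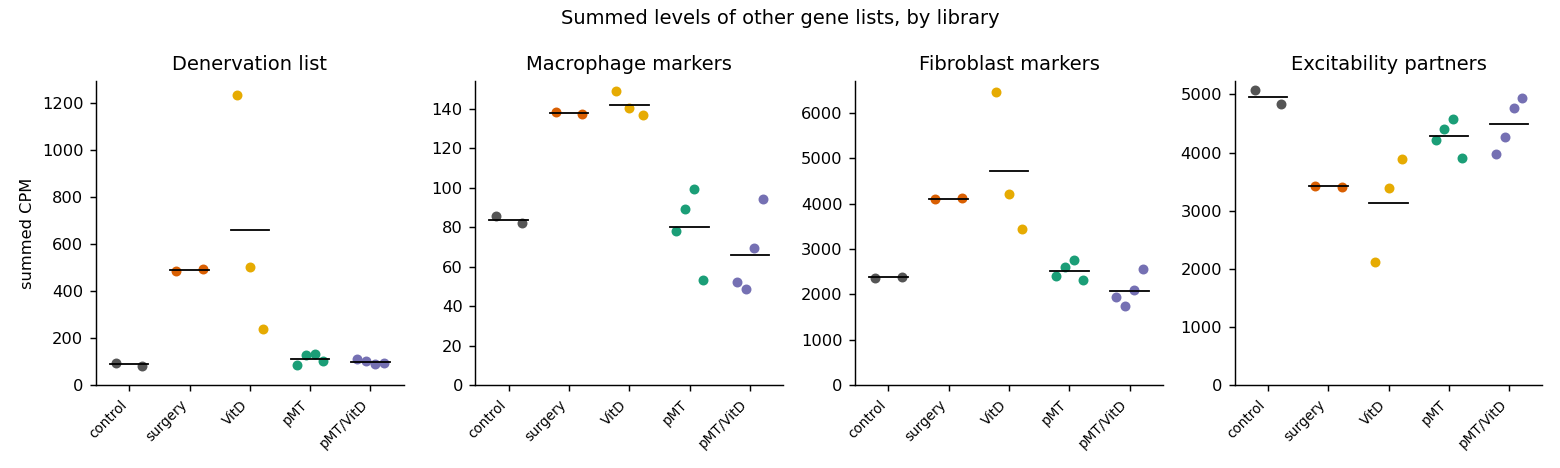
Summed CPM of 4 other gene lists by library, 1 point per library and a line at the group mean, each axis from 0. Denervation sums, to which Myh3 adds the most, lie at 240 CPM or above in every surgery and VitD library and at 131 CPM or below elsewhere.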

How the data were processed

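Paired-end reads of 15 multifidus libraries were trimmed by the authors with Trimmomatic 0.38, aligned to the rn6 assembly with HISAT2 2.1.0, sorted with SAMtools 1.9 and quantified with StringTie 2.1.3b against NCBI RefSeq annotation, per the labels. The authors deposited raw read counts per gene, TPM values and FPKM values, the last of which were not used. Handling of strand and of multiply aligned reads was not given in the sources used here, so overlapping genes are uncertain. Groups came from the sample labels. Counts were tested with edgeR 4.0.16 in R 4.3.3 (TMM factors of 0.849 to 1.20, filterByExpr, robust quasi-likelihood F-test on all 15 libraries) in 8 comparisons of 2 groups and 1 test across the 5 groups. Benjamini-Hochberg adjusted p under 0.05 was called. The test was run on simulated data first. CPM here are scaled by TMM factors, and TPM served to compare genes. Alternatives were RLE factors, library size alone, no filter on low counts, DESeq2 1.42.0, a replicate block, removal of the gene length trend, exactTest with a 2-fold limit, only the 2 groups in the fit, and leaving out each library or both replicates 4. The combination of the length trend with leaving out both replicates 4 was chosen after seeing the data.

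The potassium channel genes, the classes and the other gene lists were chosen with earlier results of these data known. Values by library are given for genes called in any comparison, the most abundant gene of each class and 15 textbook muscle channels. Others named were chosen after their values were seen, and some genes that the fits include are not reported here. Replicate numbers did not pair the libraries (24 pairs of equal number, correlation of deviations -0.50 to 0.17, median 0.010, with 2 pairs above 0.1). No 2 libraries held identical counts. Promoters were read from RefSeq, build GRCr8, matched by gene identifier, and figures were drawn with matplotlib.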

Additional observations from a re-analysis of the deposited data

Results flagged for a closer look

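In 46 sets of 4 libraries, those of the pMT and pMT/VitD groups for the 23 genes chosen by the rule for values by library, 2 libraries stood far from the other 3, where about 1 set in 20 does so by chance (2.3 of 46). Replicate 3 of pMT had 8.55 CPM of Kcnh2, while replicates 1, 2 and 4 had 7.81 to 7.88 CPM. Kcnma1 was 10.2 CPM in pMT/VitD replicate 4 against 4.04 to 4.86 CPM in its group, and this library is one of the pair that stood closer to the other group.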

How the results depend on the processing

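The 27 calls of single genes were tested again in 642 gene and setting pairs. Of these, 488 passed again, 154 did not, and 0 turned direction. The 10 calls of the test across the 5 groups have no direction and so could not turn. DESeq2 kept 27 of 27, RLE factors 26, and library size alone 17. The cause of each move below was not tested. The number of the 46 genes called rose for surgery against control from 1 to 2 with library size alone, 3 with DESeq2 and 22 with only the 2 groups in the fit. Over all genes the count rose from 266 to 997, 1001 and 5289. For VitD against control only the 2 groups in the fit gave 1 in place of 8 (96 in place of 1492 over all genes). That member was Kcnab1, and none of the 8 passed there. For pMT against surgery DESeq2 gave 4 and only the 2 groups in the fit 5, in place of 2 (747 and 520 in place of 334 over all genes). For pMT/VitD against surgery no filter gave 3, DESeq2 10 and library size alone 11, in place of 6. Over all genes these settings gave 954, 2226 and 3250, in place of 1279. Leaving out both replicates 4 gave 14 across the 5 groups in place of 10, and 5 for pMT/VitD against pMT in place of 0, and removing the length trend as well gave 14 and 1. Over all genes the main fit called 2035 and 0 in these tests. Leaving out both replicates 4 called 5125 and 3136, and removing the length trend as well 4147 and 688. Since the replicate numbers do not pair the libraries, the replicate block is given here only. With the block the counts were 0 for surgery against control, 0 for pMT against surgery, 2 for pMT/VitD against surgery, 7 for VitD against control and 7 across the 5 groups. Over all genes the block gave 106, 78, 350, 1298 and 1080 calls, in the same order. Leaving out each library in turn gave 6 to 11 across the 5 groups, 0 to 5 for surgery against control, 0 to 10 for VitD against control, 0 to 6 for pMT against surgery, 0 to 9 for pMT/VitD against surgery and 0 to 0 for the other 4 comparisons. Across the 5 groups the lowest count came without surgery replicate 1 or 2 or VitD replicate 2. For pMT against surgery leaving out any 1 of the 4 pMT libraries gave 1. For pMT/VitD against surgery leaving out pMT replicate 2, pMT/VitD replicate 1 or 3 or VitD replicate 2 gave 3, and pMT/VitD replicate 2 gave 2. Library size alone put the median log2 fold change of all genes at 0.25 for surgery against control. The lowest mean counts were those of Kcnk1, Kcnk3, Kcnd3 and Kcna10, at 16.7 to 19.4 reads per library.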
